A study of Caenorhabditis elegans with 2 samples.

Results

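The histone genes of Caenorhabditis elegans were examined for binding of EFL-1, an E2F transcription factor of the worm. They were taken as every protein-coding gene whose Ensembl symbol begins with his- or hil-, together with htz-1 and htas-1, which gave 82 of the 19973 protein-coding genes on the nuclear chromosomes. The 82 genes formed 13 clusters of 2 or more genes and 15 single loci when starts within 20000 bp were joined. Because 36 of them share a symbol in Ensembl with another copy, they are called here by their RefSeq symbols. The data came from chromatin immunoprecipitation with sequencing of whole hermaphrodites of strain YL479 at the young adult stage, which stably express EFL-1 fused at its C terminus to GFP and FLAG, in 1 group of 2 biological replicates. Chromatin was sheared by sonication and pulled down with an antibody to GFP per the sample descriptions, whereas the antibody field of the labels names efl-1. The promoter that drives the tagged protein and the state of the untagged gene are not given in the labels, and no input or control library was analysed here. Whole animals hold soma, germ line and any embryos together, so binding in few cells and weak binding in many cells cannot be told apart.

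Core histones H2A, H2B, H3 and H4 form the nucleosome around which DNA is wound, and linker histone H1 binds where DNA enters and leaves it. Most core histone genes in animals are short genes without introns, present in many near-identical copies, and are transcribed in S phase to package newly made DNA. Replacement variants such as H2A.Z and H3.3 are usually encoded by single genes with introns and are deposited outside S phase as well. E2F proteins bind the control regions of genes needed for S phase, with a DP partner, and can act as activators or, with retinoblastoma-like proteins, as repressors.

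EFL-1 peaks stood at 5 of the 82 histone genes, at 4 loci. A gene was called bound when the summit of a reproducible peak lay within 500 bp of any of its annotated starts. The bound genes were htz-1, which encodes the variant H2A.Z, hil-4, which encodes linker histone H1.4, his-37, an H4 gene with an intron, and the divergent H4 and H2A genes his-67 and his-68, which share 1 peak. The share of 6.1% lay near the background of 8.86%, that is 1770 of all 19973 genes, so the number of bound genes does not set histone genes apart. The count rests on the distance allowed: it was 3 within 200 bp and 10 within 1000 bp, against 4.73% and 11.3% of all genes.

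The sequences under the summits of htz-1, hil-4 and his-37 are shown first, together with that of his-72, the H3.3 gene with the strongest peak that missed the reproducible list. All were read from the RefSeq copy of WBcel235, the same assembly as ce11, 5′ to 3′ on the strand of the named gene with the summit at base 101. Capitals mark an E2F-type string (TTTCCCGC, TTTCGCGC, TTTGCCGC or TTTGGCGC), the string TTCGAA or TTTGAA of the cell cycle homology region (CHR), the TATA string TATAAA and the string TCCCCGCAG described further on, each on either strand. The last was picked out after these sequences had been seen. The windows are htz-1 at chrIV:4445820-4446020 (+), hil-4 at chrV:4754141-4754312 (+), his-37 at chrV:9546894-9547094 (+) and his-72 at chrIII:12368462-12368662 (-), and that of hil-4 stops at the base before the gene.
htz-1: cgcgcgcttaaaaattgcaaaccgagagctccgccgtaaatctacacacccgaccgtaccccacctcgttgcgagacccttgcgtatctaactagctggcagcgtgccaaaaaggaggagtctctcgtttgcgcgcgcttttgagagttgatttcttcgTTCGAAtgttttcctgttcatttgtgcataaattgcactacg
hil-4: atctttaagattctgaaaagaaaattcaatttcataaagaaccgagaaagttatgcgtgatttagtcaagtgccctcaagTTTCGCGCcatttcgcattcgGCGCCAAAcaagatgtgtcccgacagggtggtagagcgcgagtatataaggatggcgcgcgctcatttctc
his-37: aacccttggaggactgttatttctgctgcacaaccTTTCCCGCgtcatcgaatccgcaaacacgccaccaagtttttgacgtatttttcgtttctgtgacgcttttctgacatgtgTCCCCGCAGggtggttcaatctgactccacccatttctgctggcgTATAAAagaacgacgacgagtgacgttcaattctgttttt
his-72: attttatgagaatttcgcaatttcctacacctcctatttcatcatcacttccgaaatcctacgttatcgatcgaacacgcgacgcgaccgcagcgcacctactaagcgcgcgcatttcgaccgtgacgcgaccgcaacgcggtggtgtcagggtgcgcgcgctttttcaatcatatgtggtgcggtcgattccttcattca

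The htz-1 peak was the strongest at any histone gene. It lay on chromosome IV from 4445816 to 4445987, with an intergenic summit 296 bp before the htz-1 start, and the gene itself runs from 4446216 to 4446999 on the + strand. Its signal value, the authors' own measure of peak strength on a scale that is not stated, was 247 pooled, 162 in replicate 1 and 85.1 in replicate 2. These values ranked 181 of 29971 nuclear candidates in the pool, 172 of 29968 in replicate 1 and 208 of 29972 in replicate 2. The replicate summits stood 11 and 9 bp from the pooled one, so both replicates placed the peak at the same point. The same summit lay 180 bp upstream of wapl-1, which encodes a factor that releases cohesin from chromosomes, and was nearer to that start than to htz-1. No E2F-type string stood within 100 bp of the summit, and 1 CHR string did.

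The hil-4 peak was the next strongest and the nearest to its gene. The gene occupies 4754313 to 4755453 of chromosome V on the + strand, and the peak, from 4754186 to 4754335, had an intergenic summit 72 bp before the start. Its signal value was 181 pooled, 108 in replicate 1 and 71.8 in replicate 2, at ranks 321, 366 and 278. It was the histone peak with the most E2F-type strings within 100 bp of the summit, 2 in number, TTTCGCGC before the summit and the reverse of TTTGGCGC after it in the sequence printed. The other 8 linker histone genes had no reproducible peak. Among these, his-24, on X, had a pooled candidate of 18.4 in its intron, 341 bp downstream of the start, with 12.5 in replicate 1 and 14.3 in replicate 2. The candidate of hil-2, in its coding exon, reached 16.5 pooled and 7.95 in replicate 2, and that of hil-5 had 14.5 in the pool and 6.50 in replicate 2. Neither gene had a candidate in replicate 1, and hil-1, hil-3, hil-6, hil-7 and hil-8 had none in any list. At all 9 linker genes at least 90.27% of the 36-base words within 500 bp of the start occur once in the genome.

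The H4 gene his-37 carried the third strong peak. It occupies 9547105 to 9547607 of chromosome V on the + strand and differs from the other 15 H4 genes in having an intron. Its peak, from 9546935 to 9547067, had an intergenic summit 111 bp before the start and signal values of 163 pooled, 109 in replicate 1 and 59.5 in replicate 2, at ranks 383, 357 and 394. The replicate summits fell 4 and 0 bp from the pooled one. Within 100 bp of the summit stood 1 E2F-type string, 1 copy of TCCCCGCAG and 1 TATA string, in that order towards the gene.

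The neighbours of his-37 are the divergent genes his-35 and his-41, an H2A and an H2B gene that also have introns. They shared a pooled candidate of 35.4, with 24.7 in replicate 1 and 10.7 in replicate 2, whose summit lay in the untranslated exon of his-41, 26 bp downstream of its start and 274 bp upstream of his-35. At rank 3036 it fell outside the 2179 reproducible nuclear peaks, which were the 2179 strongest pooled candidates. Reproducible peaks stood close by in the same cluster without falling within 500 bp of these starts. One of 165 lay 867 bp from the start of his-35 and 195 bp upstream of mdf-1, a spindle checkpoint gene. Another, of 51.6, lay 665 bp upstream of his-37, nearest to C50F4.6, and a peak of 67.0 lay 620 bp downstream of the his-37 start.

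The weakest bound locus was a divergent pair of core histone genes. The genes his-67, an H4 gene from 9988452 to 9988763 on the - strand, and his-68, an H2A gene from 9989132 to 9989515 on the + strand, face away from each other on chromosome I across 368 bp, the longest of the 31 intergenic stretches. The peak between them, from 9988871 to 9989146, had its summit 246 bp upstream of his-67 and 123 bp upstream of his-68. Its signal value was 57.8 pooled, 34.4 in replicate 1 and 25.1 in replicate 2, at ranks 1655, 1829 and 1492. This was below the median of 80.2 over all reproducible peaks, and its replicate summits lay 91 and 28 bp from the pooled one. It was lost when the stronger 50% of the peaks were taken, which left 3 bound histone genes. Its window held no E2F-type string, 1 CHR string, 1 TATA string and 2 copies of TCCCCGCAG.

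**Figure D1:**
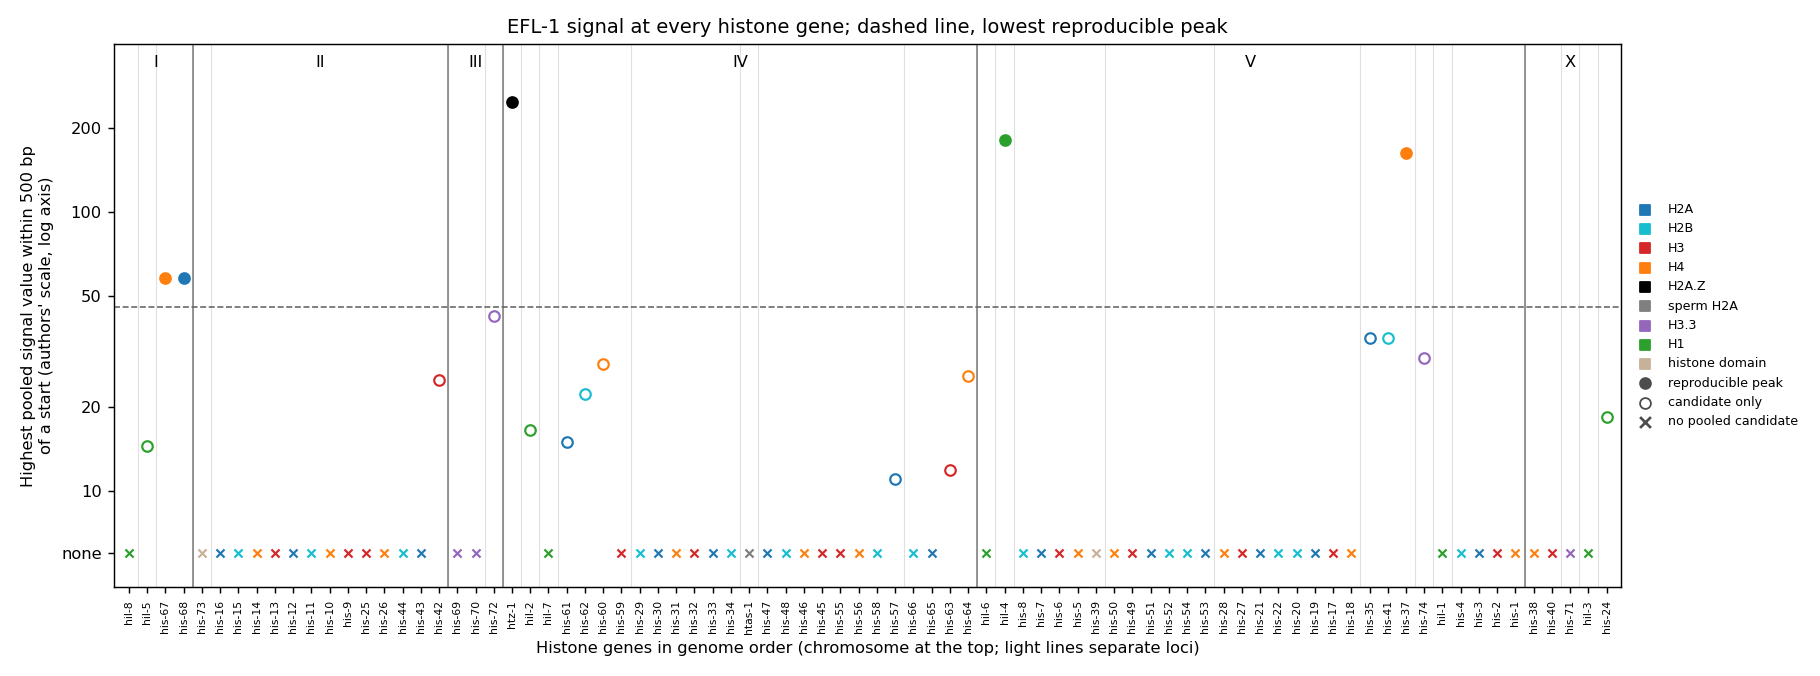
Highest pooled signal value within 500 bp of a start (authors' scale, log axis) for each of the 82 histone genes in genome order, coloured by histone class, with filled circles for reproducible peaks, open circles for candidates alone and crosses for none. The 5 filled circles at htz-1, hil-4, his-37, his-67 and his-68 lie above the dashed line at 45.6, the lowest reproducible signal, and 63 genes are crosses.

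Of the 5 genes of the replacement histone H3.3, 0 were bound, against 8.86% of all genes. So few genes cannot be set apart from that share. Among all unbound histone genes, his-72 came closest. Its pooled candidate had a signal value of 42.2, against 45.6 for the weakest reproducible peak, and ranked 2404. The replicates gave 25.8 at rank 2700 and 23.5 at rank 1650, so replicate 2 alone would have placed his-72 among its strongest 2179. The gene occupies 12367475 to 12369050 of chromosome III on the - strand, and the summit lay in the first intron of the longer transcript, 398 bp upstream of the inner start. The sequence printed for it holds none of the strings searched. A second H3.3 gene, his-74, had a pooled candidate of 29.8, with 15.1 in replicate 1 and 8.76 in replicate 2. Of the remaining H3.3 genes, his-69 had a candidate of 7.66 in replicate 1 alone, and his-70 and his-71 had none in any list. The sperm H2A gene htas-1 also had none. Reproducible peaks lay beyond 500 bp of some of these starts: 67.9 at rcq-5, 625 bp from his-69, 80.9 at Y75B8A.33, 953 bp from his-72, and 51.6 at ccch-3, 714 bp from his-74.

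The core histone genes without introns made up 60 of the 82, with 15 genes each for H2A, H2B, H3 and H4. Only his-67 and his-68 among them were bound, 3.33% of the 60 against 8.86% of all genes. A pooled candidate of any strength stood at 8 of the 60 (13.3%), at 19 of all 82 histone genes (23.2%) and at 38% of all genes. In replicate 1 the corresponding counts over all histone genes were 15 (18.3%), against 37.7% of all genes, and in replicate 2 they were 22 (26.8%), against 38.8%. Of the 60, 48 had no candidate in any of the lists, and the share of all genes with none was not computed. At 41 of these 48, less than 50% of the 36-base words around the start occur once in the genome, as described below. Of the 60, 17 had 50% or more such words. Among these 17, 2 were bound (11.8%), through 1 shared peak, and 7 had a pooled candidate (41.2%). Over all genes with 50% or more, the shares were 9.09% and 38.9%. The other 22 histone genes, made up of variants, linkers, core genes with introns and the histone-domain genes his-39 and his-73, had 3 bound members (13.6%) and 11 with a pooled candidate (50%).

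The 6 unbound genes of this group with a pooled candidate had weak ones, and 3 of the 6 summits lay past the far end of the gene. At his-60 (H4) the candidate was 28.6 in the pool and 13.1 in replicate 2, with none in replicate 1, in intergenic sequence 374 bp downstream of the start. At his-64 (H4) it was 25.7 pooled, 17.8 in replicate 1 and 5.55 in replicate 2, 424 bp downstream. At his-62 (H2B) it was 22.3 pooled, 10.8 in replicate 1 and 19.0 in replicate 2, 375 bp downstream. Upstream summits were found at his-42 (H3), his-61 (H2A) and his-63 (H3). The value at his-42 was 25.0 in the pool and 7.09 in replicate 2, 472 bp from the start and with none in replicate 1. At his-61 it was 14.9 pooled, 10.8 in replicate 1 and 5.26 in replicate 2, and at his-63 it was 11.9 in the pool and 9.90 in replicate 1. None of these reached the 45.6 of the weakest reproducible peak. The replicate values are the highest in the same window and need not be the same summit: that of replicate 1 at his-62 lay 513 bp from the pooled summit, that of replicate 2 at his-61 lay 405 bp away and that of replicate 1 at his-24 lay 258 bp away. The H2A gene his-57, which has an intron, had the weakest candidate of all, 11.1 in the pool and none in either replicate. Genes seen in replicate 2 alone were his-47, with 9.20, his-39, with 6.85, his-3 and his-4, with 6.65, and his-32, with 5.95.

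By cluster, the 13-gene cluster on chromosome II from 13817760 to 13828697 had its highest start value at his-42. The 8-gene cluster on chromosome IV from 11324056 to 11341703 had his-57 as its highest, and a reproducible peak of 224 inside the cluster belonged by position to F54E12.2, 34 bp upstream of that gene and 1045 bp from the start of his-55. The clusters led by his-60 (his-59 to his-62) and by his-64 (his-63 to his-66) also lie on chromosome IV. No pooled candidate fell within 500 bp of any start in the clusters of his-29 to his-34 on IV, of his-5 to his-8 with his-39, of his-49 to his-54, of his-17 to his-22 with his-27 and his-28, and of his-1 to his-4 on V, of his-69 and his-70 on III, or of his-38 and his-40 on X. The histone-domain gene his-73, a single locus on II, had none either.

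The copies are so alike that most of these starts hold little sequence found nowhere else. The share of 36-base words within 500 bp of a start that occur once in the genome had a median of 4.24% over the 60 core genes without introns, 99.9% over the other 22 histone genes and 100% over all genes. The 15 H2A genes had 8 distinct coding sequences, the 15 H2B genes 8, the 15 H3 genes 11 and the 15 H4 genes 11. At 44 histone genes less than 50% of the words were unique: 0 of these were bound and 2 had a pooled candidate. Over all genes, these 44 included, 4 of 550 such genes were bound (0.727%) and 19 had a candidate (3.45%). Of the 272 genes with less than 10% unique words, histone genes included, 0 were bound and 1, the histone gene his-57, had a candidate. The sources used here give neither the read length nor how reads with several matches were placed, so at these 44 histone genes a missing peak and missing uniquely placed reads cannot be told apart.

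Of the 19 histone genes with a pooled candidate, 17 had starts with 50% or more unique words, as did all 5 bound genes. With 50 to 90% unique words, 1 of 18 histone genes was bound (5.56%) and 6 had a candidate (33.3%), against 5.14% and 24.3% of 1615 genes. With 90% or more, 4 of 20 histone genes were bound (20%) and 11 had a candidate (55%), against 9.45% and 40.3% of 17808 genes. The peak shared by his-68, in the lower band, and his-67, in the upper, counts in both. The 5 bound genes all had at least 89.86% unique words. Among the 60 core genes without introns, 1 of 16 with 50 to 90% unique words was bound (6.25%) and 6 had a candidate (37.5%), and the single gene above 90% was his-67. These bands were set after earlier results of these data were known and no test was made of them.

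**Figure D2:**
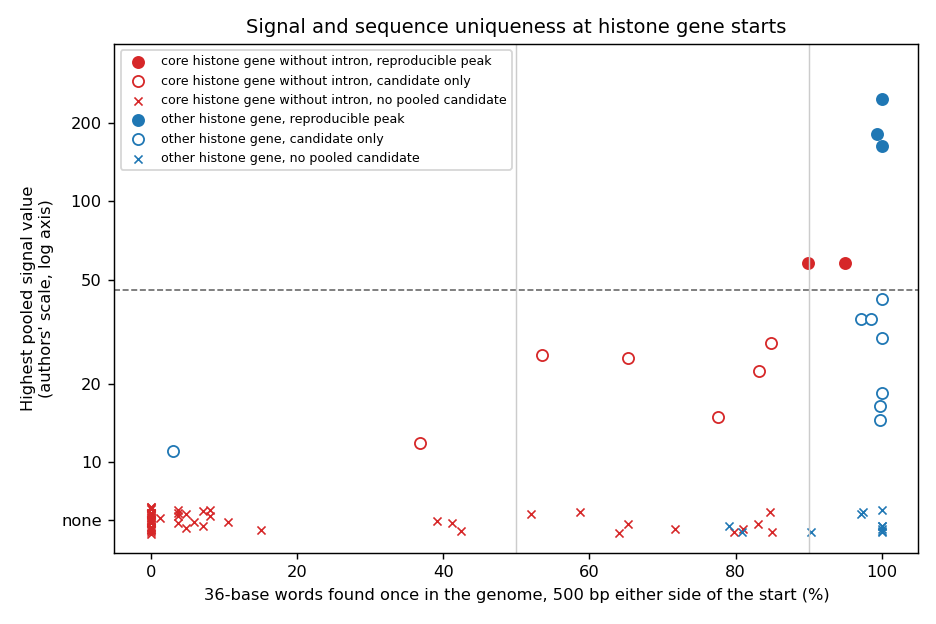
Highest pooled signal value within 500 bp of a start (authors' scale, log axis) against the share of 36-base words found once in the genome within 500 bp of the gene's 5′ end. Genes with no pooled candidate are at the level marked none, spread vertically for legibility. All 5 bound genes lie at the right, above 89%, and the 44 genes left of the line at 50% hold 2 weak candidates and 0 peaks.

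Divergent histone genes stood in 31 pairs, with intergenic stretches of 227 to 368 bp and a median of 258 bp, in 21 distinct sequences, and 16 pairs had a stretch identical to that of another pair. In 17 pairs no 36-base word was unique and 0 of these held a peak. In 8 pairs every word was unique: 1 of the 8 held a peak, his-67/his-68, and a second, his-61/his-62, held the candidate of 14.9. The other 6 (his-60/his-59, his-31/his-32, his-35/his-41, his-4/his-3, his-2/his-1 and his-38/his-40) had no pooled summit between the genes. The his-35/his-41 candidate of 35.4 has its summit 26 bp past the his-41 start and so just outside that stretch, and his-4/his-3 had a summit of 6.65 in replicate 2 alone. None of the 14 H3 and H4 pairs was bound, 5 of which had no unique word and 4 only unique ones, and none of the 16 H2A and H2B pairs, of which 12 had none and 3 only unique ones. The share of all divergent gene pairs of the genome with a peak was not computed.

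The middle 120 bases are shown for 3 stretches between H3 and H4 genes that hold the string TCCCCGCAG. It is present in 6 of the 14 H3 and H4 pairs, so these 3 do not stand for all copies. Those of his-2/his-1 (chrV:16042342-16042461) and his-60/his-59 (chrIV:7488061-7488180) are unique in the genome and free of candidates, and that of his-50/his-49 (chrV:8847764-8847883) recurs at his-28/his-27. All are on the + strand, and capitals mark TCCCCGCAG, or its reverse CTGCGGGGA, and the TATA string.
his-2/his-1: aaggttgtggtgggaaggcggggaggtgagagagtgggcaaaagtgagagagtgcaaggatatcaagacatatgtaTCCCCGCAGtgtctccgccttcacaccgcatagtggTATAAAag
his-60/his-59: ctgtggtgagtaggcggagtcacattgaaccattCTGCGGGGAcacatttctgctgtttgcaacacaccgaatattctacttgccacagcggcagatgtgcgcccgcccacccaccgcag
his-50/his-49: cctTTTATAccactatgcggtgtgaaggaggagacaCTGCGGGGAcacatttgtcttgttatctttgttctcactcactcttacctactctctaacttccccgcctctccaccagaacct

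The string TCCCCGCAG stood within 500 bp of the start at 26 of the 82 histone genes (31.7%), against 59 of all 19973 genes (0.295%), of which 33 were not histone genes. At each of the 26 the nearest copy lay upstream, 52 to 237 bp from the start with a median of 106.5 bp. The 26 genes stand at 14 start loci, and the string was present in 12 of the 31 divergent stretches, in 9 distinct sequences. The string was chosen after the sequences had been read and was not tested. Among all 2179 reproducible EFL-1 summits, 4 had the string within 100 bp (0.184%), and 2 of those 4 were the histone peaks of his-37 and of his-67/his-68.

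The E2F-type strings, in contrast, were absent around the core histone genes without introns. They stood within 500 bp of the start at 3 of 82 histone genes (3.66%), hil-4, hil-8 and his-37, against 13.6% of all genes. None of the 60 core genes without introns had one, and none of the 31 divergent stretches did, which hold 21 distinct sequences. Among the other 22 histone genes the share was 13.6%, the same as over all genes. With the first T left out, the shorter strings were found at 19 of 82 histone genes (23.2%), against 25.9% of all genes, and in 3 of the 31 stretches. They stood at 16.7% of the 60 core genes without introns and 40.9% of the other 22. Within 100 bp of all reproducible EFL-1 summits the longer strings stood at 17.2% and the shorter at 30.7%, so most peaks had neither, as at htz-1 and his-67/his-68. These windows are narrower than those around starts, so the 2 kinds of share are not on 1 scale. Within 250 bp of the start, the shares over all genes were 6.93% and 13.9%. These starts also differ in base composition: the median G+C content within 500 bp was 48.55% for core genes without introns, 39.01% for the other histone genes and 35.36% for all genes.

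The CHR and TATA strings are common in the genome. Within 500 bp of the start a CHR string stood at 61.7% of the core genes without introns and 100% of the other histone genes, against 97.2% of all genes, and the TATA string at 80% and 77.3%, against 73.5%. Within 250 bp a CHR string stood at 11.7% of the core genes without introns and 77.3% of the other histone genes, against 84.1% of all genes. The TATA string stood at 66.7% and 54.5%, against 50.5% of all genes. In the divergent stretches alone, TATAAA was present in 24 of 31 and a CHR string in 4. A match to a string describes the sequence and not a site in use, and the part of base composition in these shares was not tested.

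**Figure D3:**
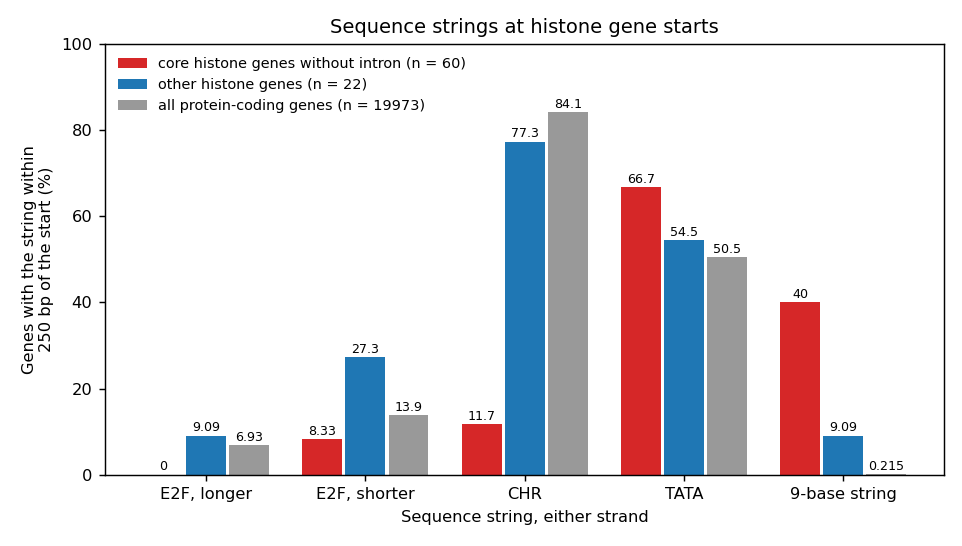
Share of genes (%, from 0) with each string on either strand within 250 bp of the start, for the 60 core histone genes without introns, the 22 other histone genes and all 19973 genes. The 9-base string TCCCCGCAG stands at 40% of core genes without introns and 0.215% of all genes, whereas no such core gene has the longer E2F string.

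EFL-1 peaks also stood at genes whose products process, carry or exchange histones. In 5 lists of such genes, 21 of 28 were bound (75%). A longer E2F-type string stood within 100 bp of the summit at 10 of the 21 peaks, against 17.2% of all reproducible peaks. By list, the string stood at 2 of 2 peaks for histone message processing and 5 of 7 for H3 and H4 chaperones and acetylation. It stood at 3 of 4 for H2A and H2B chaperones, 0 of 2 in the centromeric list and 0 of 6 for H2A.Z exchange. The lists were drawn up with earlier results of these data known, and no test was made of the counts. The peaks of csr-1, chaf-2, lin-53, hmg-4, trr-1 and epc-1 also lay within 500 bp of another gene's start. Those of csr-1, hmg-4 and trr-1 were nearer to another start. Each of the 28 starts had at least 77.43% unique words, and among starts with 50% or more 5 of 38 histone genes (13.2%) and 9.09% of all genes were bound.

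Both genes for processing histone messages were bound. The gene cdl-1, which encodes the stem-loop binding protein that histone messages without poly(A) tails depend on, had a peak of 263 pooled, 174 in replicate 1 and 90.7 in replicate 2, which is above that of htz-1 in each. The Argonaute gene csr-1, which takes part in the maturation of histone messages in worms, had one of 170, shared with frpr-10. Its summit lay 430 bp upstream of a csr-1 start. The csr-1 call was lost with the nearest start only, with the gene's 5′ end only and within 200 bp. Among chaperones and acetyltransferases of H3 and H4, 7 of 11 were bound. The strongest was nasp-2, a gene of the NASP family of H3 chaperones, with 518 pooled, 323 in replicate 1 and 197 in replicate 2. It was followed by lin-53 (468), of the RbAp46/48 family, unc-85 (268), an Asf1 gene, hat-1 (217), a histone acetyltransferase gene, hira-1 (143), which encodes a chaperone of H3.3, chaf-2 (130), a CAF-1 subunit gene, and nasp-1 (120). The unbound members were asfl-1, the second Asf1 gene, with a pooled candidate of 30.4, chaf-1 with 21.9, rba-1 with 18.3 and xnp-1 with none.

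All 4 genes for H2A and H2B chaperones were bound: hmg-3 (147), hmg-4 (109) and spt-16 (58.9), which encode subunits of the FACT complex, and nap-1 (52.6). For the centromeric H3 variant, which marks where kinetochores form, hcp-3 had a peak of 75.3 pooled, 53.4 in replicate 1 and 22.8 in replicate 2. Its paralog cpar-1 had a candidate of 44.5, with 15.1 in replicate 1 and 24.8 in replicate 2, just under the weakest reproducible peak. The loading factor gene knl-2 had a peak of 130, with 78.7 in replicate 1 and 49.3 in replicate 2. Among genes for the exchange of H2A.Z and the acetyltransferase complex tied to it, 6 of 8 were bound: zhit-1 (140), mys-1 (129), trr-1 (122), ruvb-2 (118), epc-1 (59.1) and ssl-1 (51.5). The replicates differed at zhit-1, with 124 in replicate 1 and 19.2 in replicate 2, and at ssl-1, with 29.9 in replicate 1 and no candidate in replicate 2. When replicate 2 was left out, ssl-1 and epc-1 were no longer bound. When replicate 1 was left out, ssl-1, zhit-1 and the chaperone gene nap-1 were lost, whereas cpar-1 and ruvb-1 were added. In the pool, ruvb-1 and gfl-1 had only candidates, of 34.2 and 23.6. The H2A.Z gene htz-1 itself, at 247, had a higher pooled value than each of these 8.

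**Figure D4:**
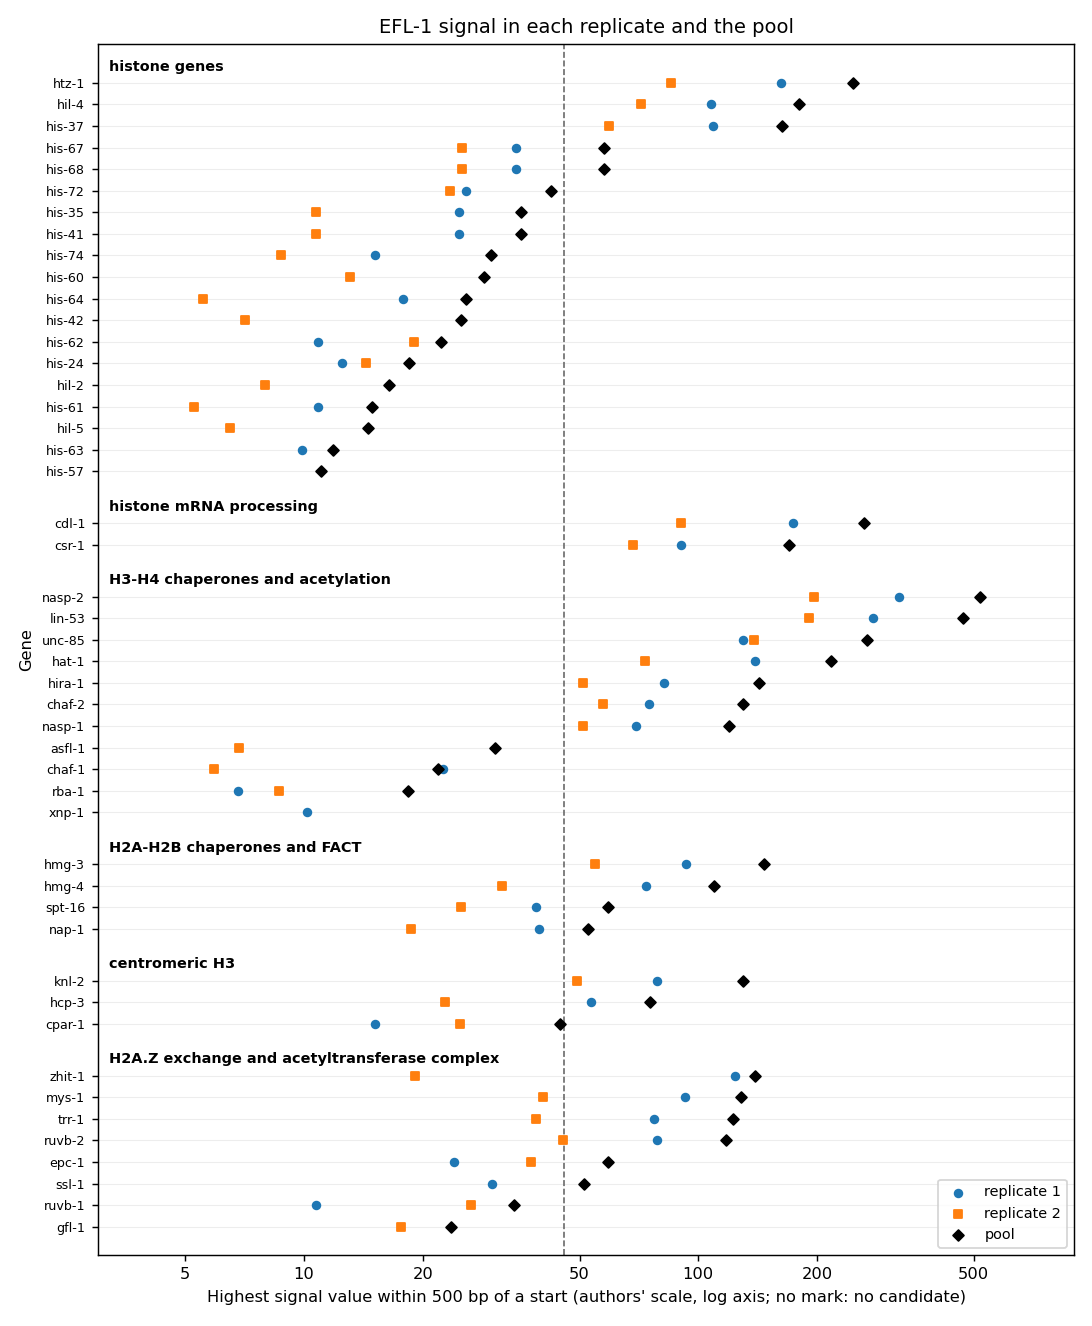
Highest signal value within 500 bp of a start in replicate 1, replicate 2 and the pool (authors' scale, log axis) for the 19 histone genes with a pooled candidate and the 28 genes of the 5 lists, with no mark where a list has no candidate. The dashed line at 45.6 is the lowest reproducible pooled value, with 5 histone genes and 21 list genes to its right.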

How the data were processed

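EFL-1 peak lists from 2 biological replicates, which form 1 group, were used on build ce11. Per the deposited file descriptions, the authors made lists of candidates with background, 1 per replicate and 1 for the pool, and derived from these an optimal list thresholded by the irreproducible discovery rate (IDR), which is called reproducible here. The deposited signal value of a peak is that of the authors, whose scale is not stated, and served only for description and ranking within 1 list. Aligner, peak caller, IDR threshold, read length and the handling of multi-matching reads are not given in the sources that were used. No read counts are given, so depth is unknown. The file descriptions name a control file whose data were not analysed here.

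Summits were compared with every protein-coding transcript start of Ensembl release 115 on WBcel235, with mitochondrial peaks left out, and a gene was bound if a reproducible summit lay within 500 bp. Starts within 1000 bp were merged into start loci. Symbols were taken from RefSeq by gene ID, which matched all 82 histone genes at the same coordinates. Words of 36, 50 and 100 bases occurring once on either strand of the nuclear and mitochondrial genome were counted within 500 bp of each gene's 5′ end. For words, strings and G+C content the start is this 5′ end, whereas binding used every annotated start. Strings were searched on both strands in the same windows, the shorter E2F-type strings being part of the longer ones. With 1 group and no control there was no comparison of conditions to test, and every result is a count or a value beside that over all genes.

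The members, gene lists and bands of uniqueness were chosen with earlier results of these data known. All histone genes are accounted for. Values are given for each bound member, the variant and linker genes, the leading member of each cluster, the members just inside and outside the threshold, and the bound genes of 5 lists (28 genes). Genes of other peaks near the clusters, the unbound list genes, and the CHR, TATA and TCCCCGCAG strings were added after values or sequences were seen. Alternatives were distances of 200 and 1000 bp, the stronger 50% of the peaks, the nearest start only and the peak interval in place of the summit. Others were the gene's 5′ end only, and other windows, strings and word lengths. Either replicate by itself was also used, through its 2179 strongest candidates, as many as the reproducible peaks. Assignment of summits and word counts were tested on simulated data. Computation used Python 3.11.15, numpy 2.4.6, pandas 2.3.3 and matplotlib 3.10.9.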

Additional observations from a re-analysis of the deposited data

How the results depend on the processing

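The 5 bound histone genes at 4 loci were counted again under each alternative. Within 200 bp of a start 3 genes remained, his-67 and htz-1 being lost, while 9 of the 28 list genes and 4.73% of all genes were bound. Within 1000 bp 10 genes at 8 loci and 11.3% of all genes were bound, with his-69, his-72, his-35, his-41 and his-74 added. With the stronger 50% of the peaks 3 genes and 5.31% of all genes were bound, without his-67 and his-68. With each summit given to its nearest start only, 3 histone genes and 6.84% of all genes were bound, his-67 and htz-1 being lost. The bound list genes then numbered 18, without csr-1, hmg-4 and trr-1. With either replicate left out, the 2179 strongest candidates of the other were taken. The number of peaks was thus held fixed, which keeps the share of all genes near that of the main list, and reproducibility was not called again. The count ranged from 5 to 6 histone genes, 4 to 5 loci, 19 to 20 list genes and 8.27 to 8.94% of all genes. The gene his-72 was added when replicate 1 was left out. The peak interval in place of the summit gave 6 genes, with his-69 added, and 9.59% of all genes. The gene's 5′ end alone gave 5 histone genes and 8.47% of all genes. Both hil-4 and his-37 were bound under every one of these alternatives. The 3 histone genes with a longer E2F-type string became 19 with the shorter one and 2 within 250 bp. Starts with less than 50% unique words numbered 44, 43 and 40 for words of 36, 50 and 100 bases. No paired analysis was possible because there is only 1 group. Depth is unknown, so candidates near the weakest reproducible peak, such as his-72, cannot be given an error beyond their 2 replicate values.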
